A study of Mus musculus with 8 samples.

Results

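The nuclear genes for subunits of the mitochondrial respiratory chain and of ATP synthase were followed in liver RNA-seq. Members were taken by gene symbol alone: Nduf followed by a, b, c, s or v and a digit for complex I, Sdha to Sdhd for complex II, Uqcr for complex III, Cox4 to Cox8 for complex IV and Atp5 for complex V. The rule found 83 of the 24940 genes in the table, with 37 in complex I, 4 in complex II, 8 in complex III, 18 in complex IV and 16 in complex V. The rule uses no measured value, though it was set with earlier results of these data known. Subunits encoded by mitochondrial DNA were not analysed here.

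Livers came from 4 FxrKO and 4 Bcl6LKOFxrKO male mice of the C57BL/6 strain. Both genotypes lacked FXR, the bile acid receptor, in the whole body, and both carried floxed Bcl6 (fl/fl). Only the Bcl6LKOFxrKO mice also carried Alb-Cre, in which the albumin promoter drives Cre in hepatocytes. Bcl6 in other liver cells was not measured separately. BCL6 is a transcriptional repressor, and the comparison asks how liver RNA differs when it is lost from hepatocytes that already lack FXR. Mice with intact Fxr were not analysed here, and ages were not given in the sources used here. Livers are numbered 1 to 4 (FxrKO) and 5 to 8 (Bcl6LKOFxrKO) as in the labels.

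The respiratory chain sits in the inner mitochondrial membrane. Complexes I and II pass electrons from NADH and succinate to coenzyme Q, complex III passes them on to cytochrome c, and complex IV hands them to oxygen. Complexes I, III and IV pump protons, and ATP synthase, complex V, uses the proton gradient to make ATP. Hepatocytes are rich in mitochondria and draw on this chain when they burn fatty acids and make glucose and urea.

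Each liver gave between 7586241 and 11839503 counted reads. The 83 members took 1.16% to 1.35% of them in FxrKO livers and 0.788% to 1.06% in Bcl6LKOFxrKO livers. Levels are given as CPM, the standard unit of read counts scaled to library size, and per length as RPKM (CPM divided by transcript length in kilobases). Bcl6 stood at 56.3, 65.2, 21.2 and 55.6 CPM in FxrKO livers and 11.9, 4.61, 5.55 and 7.72 CPM in Bcl6LKOFxrKO livers, a log2 fold change of -2.72 ± 0.40 (SE, adjusted p = 0.00123), so the targeted gene followed the labels. Alb, whose promoter drives Cre, took 4.04% to 5.16% of the reads in FxrKO livers and 11.9% to 13.2% in Bcl6LKOFxrKO livers. The other hepatocyte markers together reached 31292 to 37253 CPM and 28196 to 34964 CPM, ranges that overlapped.

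Of the 83 members, 75 had enough reads to be tested. In Bcl6LKOFxrKO livers 25 members fell and 1, Cox8b, rose, at a p below 0.05 from the quasi-likelihood test of edgeR, adjusted after Benjamini and Hochberg over 12340 genes. Without liver 3 or without liver 5 the count of lower members was 16, beside 10.1% and 10.4% of all tested genes. With the 8 livers, 13.5% of all tested genes were called lower and 16.2% higher. The median log2 fold change of the members was -0.21, beside 0.010 over all tested genes, and 60 of the 75 had a negative sign. The called changes were moderate in size, from -20.3% to -36.6% of the FxrKO level. With a log2 fold change below -0.5 also required, 7 of the 75 members were called lower. This was close to the 9.84% of all tested genes. With a log2 fold change above 0.5 required, 1 member was called higher, beside 14.1% of all tested genes. In bulk liver, fewer hepatocytes and less RNA per hepatocyte cannot be told apart.

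The members' median stayed negative under each scaling tried, from -0.17 with upper quartile factors to -0.37 with total counts alone. Total counts moved the median of all tested genes to -0.15, so the members' median relative to it was -0.22. With that scaling 39 members and 23.9% of all tested genes were called lower, and 32.3% of all calls were upward, compared with 54.5% in the main scaling, 43.0% with a length offset and 41.0% with a length and GC offset.

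**Figure D1:**
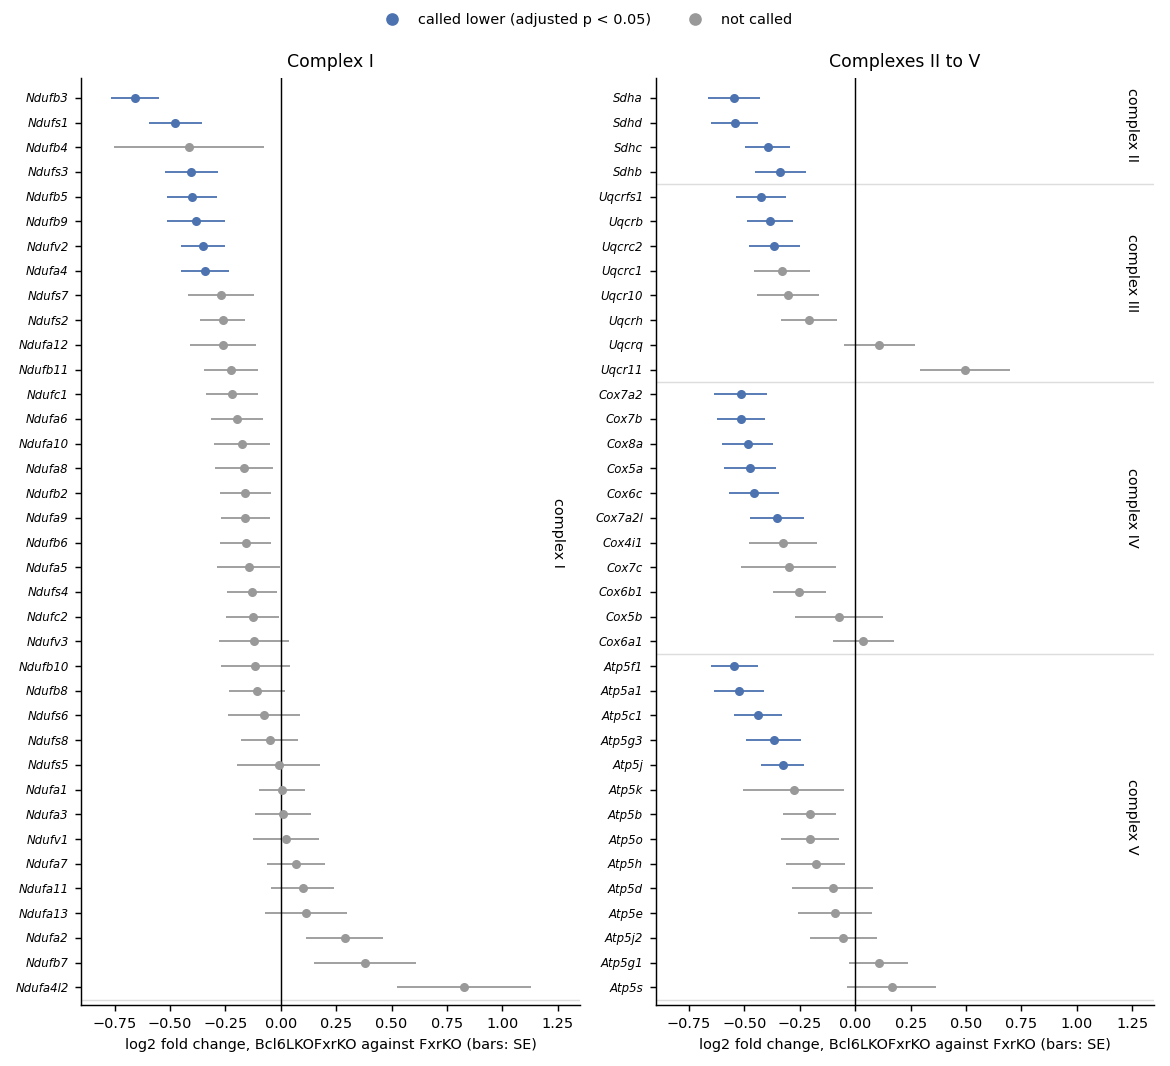
Log2 fold change (Bcl6LKOFxrKO against FxrKO, n = 4 livers each) of the tested subunit genes, sorted within each complex; points are edgeR estimates, bars their SE, and blue points were called lower. Cox8b, at 0 counts in all FxrKO livers, is left off. Of the other 74 genes 25 were called lower, among them all 4 of complex II, beside 13.5% of all tested genes.

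Liver 8 stood apart from the other Bcl6LKOFxrKO livers, and this touches most values below. For each liver, the log2 CPM of every tested member was set against its FxrKO mean and the median taken over members. The median was -0.046, 0.016, 0.12 and -0.071 in FxrKO livers 1 to 4 and -0.29, -0.36 and -0.35 in livers 5, 6 and 7. In liver 8 it was 0.080, within the FxrKO range. Livers 5, 6 and 7 all lay below the lowest FxrKO liver for 49 of the 75 members (65.3%), compared with 18.5% of all tested genes. For these members liver 8 was also below the FxrKO livers in 22 cases, within their range in 10 and above it in 17. All 4 Bcl6LKOFxrKO livers thus lay below all 4 FxrKO livers for 22 members, beside 15.2% of all tested genes, and above them for 2, beside 16.1%.

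Liver 8 was singled out after its values were seen, and its members' median lay above those of livers 5 to 7. Fits without it, here and below, are therefore no independent support for lower subunit levels. Without liver 8, 45 members were called lower and 1 higher, beside 13.5% and 15% of all tested genes, and the members' median was -0.32. All 25 members called lower with the 8 livers were among them. The added calls were 10 in complex I, 3 in complex III, 2 in complex IV and 5 in complex V. Lists outside the chain were looked at as well. The median deviation of the cytosolic ribosome list was 0.31 in liver 8 and between -0.047 and 0.041 in livers 5 to 7. For the citric acid cycle it was -0.36 in liver 8, within the -0.40 to -0.30 of livers 5 to 7. Where a gene is given with 4 values per genotype, they are in the order of the livers, so that liver 8 is the last.

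**Figure D2:**
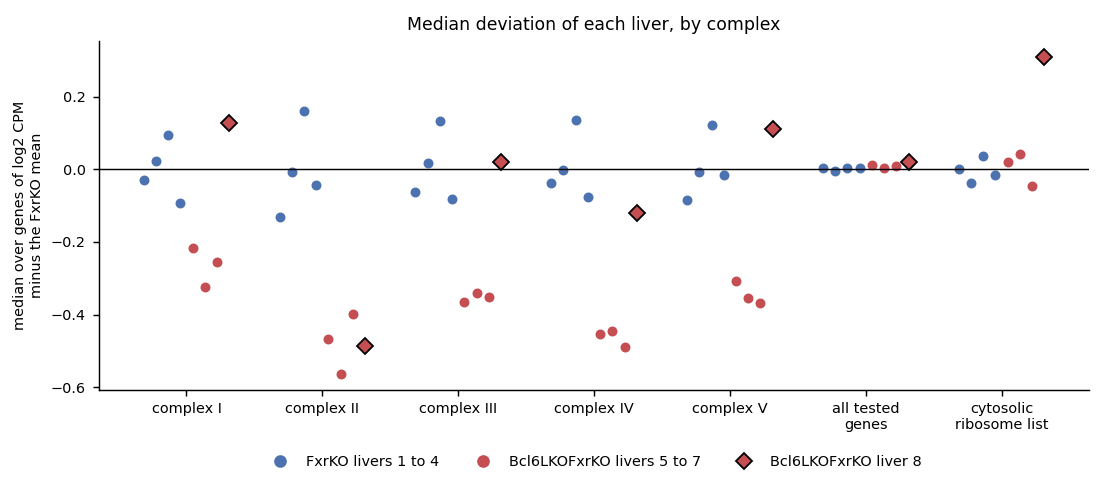
Median over tested genes of the log2 CPM minus the FxrKO mean, for each complex, all tested genes and the cytosolic ribosome list, one symbol per liver (blue, FxrKO; red, Bcl6LKOFxrKO; diamond, liver 8). Liver 8 lies with livers 5 to 7 for complex II, at -0.48, and above them for the other complexes.

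Complex II, succinate dehydrogenase, belongs to both the citric acid cycle and the respiratory chain. All 4 of its subunits fell, beside 13.5% of all tested genes, with a median log2 fold change of -0.47. Sdha, the flavoprotein that binds succinate, stood at 577, 701, 733 and 625 CPM in FxrKO livers and 460.4, 409.7, 472 and 464 CPM in Bcl6LKOFxrKO livers. The genotypes did not overlap, and liver 8 lay among the others of its group (log2 fold change -0.55 ± 0.12, adjusted p = 0.00381). Sdhb, the iron-sulfur subunit, stood at 166, 181, 206 and 181 CPM and 136, 135, 140.3 and 169 CPM. Here liver 8 reached into the FxrKO range (-0.34 ± 0.12, adjusted p = 0.0423), and without it the change was -0.42, adjusted p = 0.00732. Sdhb was not called without liver 2, 3, 4, 5, 6 or 7 (adjusted p up to 0.124).

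The membrane anchors Sdhc and Sdhd behaved like Sdha. Sdhc stood at 165, 167, 178 and 158 CPM in FxrKO livers and 136, 119, 133 and 120.4 CPM in Bcl6LKOFxrKO livers (-0.39 ± 0.10, adjusted p = 0.0108). Sdhd stood at 201, 211, 244 and 220.0 CPM and 147, 140.2, 164 and 150.0 CPM (-0.54 ± 0.11, adjusted p = 0.00218). Neither gene overlapped between genotypes. Of all tested genes, 15.2% had all 4 Bcl6LKOFxrKO livers below all 4 FxrKO livers. The summed level of the 4 genes was 1229 ± 108 CPM (SD, n = 4) in FxrKO livers and 874 ± 48.4 CPM (SD, n = 4) in Bcl6LKOFxrKO livers. The ratio was 0.711, and 0.703 without liver 8. For the summed levels of complexes I, III, IV and V the ratios were 0.891, 0.885, 0.800 and 0.805, and without liver 8 they were 0.825, 0.824, 0.741 and 0.764.

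**Figure D3:**
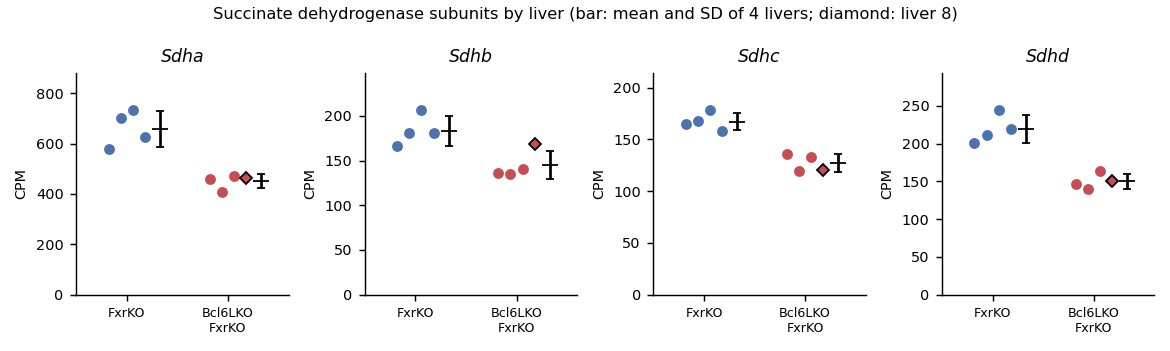
CPM of the succinate dehydrogenase subunits in each liver, with the mean and SD of 4 livers beside the points; each vertical axis starts at 0. The genotypes do not overlap for Sdha, Sdhc and Sdhd, while for Sdhb liver 8, at 169 CPM, lies above the lowest FxrKO liver, at 166 CPM. Of all tested genes, 15.2% lay lower in Bcl6LKOFxrKO livers without overlap.

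Complex I, NADH dehydrogenase, has the most subunits. Of its 37 tested genes 7 fell (18.9%, beside 13.5% of all tested genes), with a median of -0.16. None was called higher by edgeR (1 at an unadjusted p below 0.05, 0 with DESeq2 and 0 with limma voom), beside 16.2% of all tested genes. Ndufa4l2 was called higher with upper quartile factors and with a length offset. Without liver 8, 17 complex I genes were called lower, beside 13.5% of all tested genes, and the median was -0.29. Ndufb3, an accessory subunit of the membrane arm, had the most negative log2 fold change of the members with the scaling used here. With the length and GC offset the most negative was in complex IV (-0.70), compared with -0.53 for Ndufb3. Ndufb3 stood at 51.9, 53.2, 57.5 and 46.0 CPM in FxrKO livers and 31.5, 31.7, 32.9 and 36.0 CPM in Bcl6LKOFxrKO livers (-0.66 ± 0.11, adjusted p = 0.000677). Every Bcl6LKOFxrKO liver lay below every FxrKO liver.

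Ndufs1, the largest core subunit, carries iron-sulfur clusters on the path of the electrons. It stood at 129.8, 158, 159 and 156 CPM in FxrKO livers and 109.6, 99.5, 128 and 96.2 CPM in Bcl6LKOFxrKO livers (-0.48 ± 0.12, adjusted p = 0.0101), with liver 8 the lowest of all. Ndufb5, also of the membrane arm, stood at 77.6, 81.5, 82.2 and 85.2 CPM and 53.1, 61.8, 60.0 and 72.3 CPM, with no overlap (-0.40 ± 0.11, adjusted p = 0.0167). Ndufb9, among the most abundant per length in complex I, stood at 166, 180.4, 191 and 169 CPM and 118, 123, 128 and 172 CPM. Of the Bcl6LKOFxrKO livers, liver 8 alone reached the FxrKO range (-0.38 ± 0.13, adjusted p = 0.0408). The other called genes were Ndufv2, Ndufs3 and Ndufa4, with log2 fold changes of -0.35, -0.40 and -0.34. Ndufb5 was not called without liver 5 (adjusted p = 0.0601). Ndufb9 was not called without liver 1, 2, 3, 4, 5, 6 or 7 (adjusted p up to 0.119).

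Complex I was also split by textbook role, a grouping chosen after the values were seen. Of the 7 nuclear core subunits, which hold the redox centres, 3 were called lower, with a median of -0.27. Of 28 accessory subunits 3 were called lower, with a median of -0.14, where 13.5% of all tested genes were called lower. The difference between core and accessory genes was not tested.

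Complex III, the cytochrome bc1 complex, had 3 of 8 genes called lower, beside 13.5% of all tested genes, with a median of -0.32. None was called higher by edgeR (1 at an unadjusted p below 0.05, 0 with DESeq2 and 0 with limma voom), beside 16.2% of all tested genes. Uqcr11 was called higher with a length offset and without liver 7. Uqcrfs1, the Rieske iron-sulfur protein, stood at 185, 189.7, 231 and 184 CPM in FxrKO livers and 152, 133, 155 and 148 CPM in Bcl6LKOFxrKO livers, with no overlap (-0.43 ± 0.11, adjusted p = 0.0129). Uqcrb, a small subunit, stood at 68.5, 68.4, 81.6 and 72.4 CPM and 56.1, 59.7, 54.1 and 52.8 CPM, again with no overlap (-0.39 ± 0.10, adjusted p = 0.0139). Uqcrc2, a core protein on the matrix side, stood at 214, 245, 264 and 251 CPM and 189, 185, 214 and 169 CPM (-0.37 ± 0.12, adjusted p = 0.0299). Liver 7 just reached the lowest FxrKO liver. Uqcrb was not called without liver 3 (adjusted p = 0.0518). Uqcrc2 was not called without liver 2, 3, 4, 5 or 6 (adjusted p up to 0.0847).

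The small subunits Uqcrh and Uqcr11 had the highest level per length in complex III and were not called. Uqcrh, the hinge protein near the cytochrome c site, stood at 154, 162, 164 and 157 CPM in FxrKO livers and 122, 130.2, 124 and 175 CPM in Bcl6LKOFxrKO livers. Liver 8 was above every FxrKO liver (-0.21 ± 0.13, adjusted p = 0.239), and without it Uqcrh was called (-0.34, adjusted p = 0.00941). Uqcr11 stood at 96.8, 102, 109 and 87.5 CPM and 125, 112, 104 and 216 CPM, with liver 8 the highest (0.50 ± 0.20, adjusted p = 0.0883). Without liver 8 its value was 0.20, adjusted p = 0.162.

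Complex IV, cytochrome c oxidase, had 12 tested genes, of which 6 fell and Cox8b rose, with a median of -0.34. Of all tested genes 13.5% were called lower and 16.2% higher. Cox7b stood at 153, 167, 197 and 176 CPM in FxrKO livers and 117, 116, 124 and 127 CPM in Bcl6LKOFxrKO livers (-0.52 ± 0.11, adjusted p = 0.00314). Cox7a2, the form of subunit 7a found in liver, stood at 131, 147, 138 and 125 CPM and 85.0, 92.1, 86.7 and 114 CPM (-0.52 ± 0.12, adjusted p = 0.00584). Cox8a, the ubiquitous form of subunit 8, stood at 188, 204, 221 and 176 CPM and 145, 144, 121 and 154 CPM (-0.49 ± 0.12, adjusted p = 0.00723). None of these genes overlapped between genotypes. The other called genes were Cox5a, Cox6c and Cox7a2l.

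Cox4i1, the ubiquitous form of subunit 4, stood at 324, 316, 355 and 311 CPM in FxrKO livers and 236, 215, 232 and 358 CPM in Bcl6LKOFxrKO livers. With liver 8 above every FxrKO liver it was not called (-0.33 ± 0.15, adjusted p = 0.13), and without that liver it was (-0.52, adjusted p = 0.00205). Cox6a1, the gene of complex IV with the highest level per length, stood at 234, 249, 266 and 209 CPM and 244, 226, 205 and 308 CPM. It was not called with liver 8 (0.037 ± 0.14, adjusted p = 0.865) or without it (-0.090, adjusted p = 0.578), and its sign turned under scaling to total counts, where the value was -0.12.

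Complex V, ATP synthase, had 14 tested genes, of which 5 fell, beside 13.5% of all tested genes, with a median of -0.20. None was called higher by edgeR (0 at an unadjusted p below 0.05, 0 with DESeq2 and 0 with limma voom), beside 16.2% of all tested genes. Atp5f1, the b subunit of the peripheral stalk, stood at 224, 237, 267 and 242 CPM in FxrKO livers and 173, 151, 176 and 164 CPM in Bcl6LKOFxrKO livers (-0.55 ± 0.11, adjusted p = 0.00202). Atp5a1, the alpha subunit of the catalytic head, stood at 938, 1074, 1162 and 1057 CPM and 730.2, 699, 752 and 757 CPM (-0.53 ± 0.11, adjusted p = 0.00377). Atp5c1, the gamma subunit of the rotating shaft, stood at 211, 239, 260.3 and 249 CPM and 172, 164, 184 and 187 CPM (-0.44 ± 0.11, adjusted p = 0.00853). Liver 8 lay below every FxrKO liver for each of them.

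Atp5b, the beta subunit with the catalytic sites, was the most abundant member per length, at 739.9 RPKM in FxrKO livers. It stood at 1256, 1399, 1523 and 1347 CPM in FxrKO livers and 1171, 1084, 1181 and 1355 CPM in Bcl6LKOFxrKO livers and was not called (-0.21 ± 0.12, adjusted p = 0.221), nor was it without liver 8 (-0.27, adjusted p = 0.0909). The difference between Atp5b and its partner Atp5a1 was not tested. By part of the enzyme, also grouped after the values were seen, 2 of 5 genes of the head and shaft, 2 of 4 of the peripheral stalk and 1 of 4 tested genes of the membrane part were called lower. The median log2 fold changes of these parts were -0.21, -0.26 and -0.17. Of all tested genes 13.5% were called lower.

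Levels per length in FxrKO livers had a median of 223 RPKM in complex V, 197 RPKM in complex IV, 172 RPKM in complex II, 156 RPKM in complex III and 86.1 RPKM in complex I. For 18 of the 83 members part of the transcript was identical over 100 bases to a transcript of another gene. Only unique alignments were kept, so reads from such parts could be lost where the other gene lies elsewhere in the genome. Whether it does was not checked. The shared part was 86.4% of windows for Atp5g2, 61.3% for Atp5l, 57.3% for Atp5g1 and 44.4% for Cox7c, so the levels of these genes are uncertain. Among the called genes it was 19.9% for Ndufs3, 17% for Ndufb9 and 15.8% for Uqcrb, with lower shares for Cox6c, Cox7a2l and Atp5f1.

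Cox8b, the heart and skeletal muscle form of subunit 8, was the member that rose. It had 0 counts in all 4 FxrKO livers and 33, 10, 12 and 32 counts in Bcl6LKOFxrKO livers 5 to 8 (edgeR adjusted p = 0.00041). Cox8b passed the read filter only through the Bcl6LKOFxrKO livers, where it was high, so this p is not independent support for the rise. Against a floor of 3 counts in each FxrKO liver, its mean of 2.15 CPM was at least 6.66-fold higher. Per length it remained low, at 6.00 RPKM beside 260.4 RPKM for Cox8a in Bcl6LKOFxrKO livers. None of 15 skeletal and cardiac muscle markers had enough reads to be tested. Ckm, Myh2, Myh4, Myh6 and Myh7 had 0 counts in all livers. The markers summed to 0.833 to 1.80 CPM in FxrKO livers and 1.94 to 3.90 CPM in Bcl6LKOFxrKO livers. These sums were higher in Bcl6LKOFxrKO livers without overlap, with at most 19 counts for any marker in any liver. The nearest gene, Psmd13, runs toward Cox8b on the other strand and ends 300 bases from it. Psmd13 had 524 to 779 counts in the FxrKO livers, where Cox8b had 0. In Bcl6LKOFxrKO livers 5 to 8 Psmd13 had 794, 593, 726 and 1263 counts, and it was not called (0.28 ± 0.15, adjusted p = 0.18). Whether reads of Psmd13 were counted for Cox8b was not tested. The library kit was stranded, but the strand setting of the counting was not given in the sources used here.

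The upstream sequences of this pair are shown because Cox8a fell where Cox8b rose. They come from RefSeq on GRCm38.p6 (mm10), cover 250 bases and run 5′ to 3′ up to the start site. Cox8a lies at chr19:7217617-7217866 and Cox8b at chr7:140900447-140900696, both on the minus strand. Capitals mark the upstream part of an ETS motif.
Cox8a: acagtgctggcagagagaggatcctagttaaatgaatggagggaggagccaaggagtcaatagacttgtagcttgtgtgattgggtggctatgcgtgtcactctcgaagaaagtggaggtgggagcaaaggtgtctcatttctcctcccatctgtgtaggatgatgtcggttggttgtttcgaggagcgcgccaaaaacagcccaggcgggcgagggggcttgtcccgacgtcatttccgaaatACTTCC
Cox8b: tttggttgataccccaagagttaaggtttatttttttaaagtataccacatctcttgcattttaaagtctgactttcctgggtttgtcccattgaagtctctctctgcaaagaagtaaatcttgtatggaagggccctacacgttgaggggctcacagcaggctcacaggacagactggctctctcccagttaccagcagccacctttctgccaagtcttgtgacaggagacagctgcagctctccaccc
Counted with the start site as 0, Cox8a held ETS motifs on the reverse strand from positions -6 and 31, the latter beyond the sequence shown. None of the motifs searched was found in the Cox8b window. Of the other members with an ETS motif, Ndufs3 fell, and Uqcr11, Uqcrh and Atp5h were not called. Whether motifs go with the changes was not tested.

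Paralogues for other tissues or conditions were compared by their log2 ratio within each liver. In 7 pairs with at least 10 counts in total for each gene, an exact two-sided permutation test was run, whose smallest possible p is 0.0286. For 4 pairs the ratio was higher in all 4 Bcl6LKOFxrKO livers than in any FxrKO liver. Each was at that smallest p and at an adjusted p of 0.05, which is not below the threshold. Of these, Cox8b to Cox8a met the count limit only through Bcl6LKOFxrKO livers, so its p is not independent support. The adjusted p of the other pairs depends on it too. How often ratios of other genes are so separated was not worked out. Atp5g1 and Atp5g3 encode the same c-ring protein, and the log2 ratio of the first to the second differed by 0.48, from -3.91 ± 0.15 (SD, n = 4) to -3.43 ± 0.19 (SD, n = 4). Atp5g3 stood at 324, 336, 377 and 325 CPM in FxrKO livers and 266, 226, 251 and 313 CPM in Bcl6LKOFxrKO livers (-0.37 ± 0.12, adjusted p = 0.0385). Atp5g1 was not called (0.11 ± 0.13, adjusted p = 0.582), and its sign turned under total counts, where the value was -0.054. Atp5g3 was not called without liver 1, 2, 3, 4, 5, 6 or 7 (adjusted p up to 0.108).

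Ndufa4 is placed in complex I by its symbol but is now regarded as a subunit of complex IV, and Ndufa4l2 is its hypoxia-induced paralogue. Ndufa4 stood at 248, 255, 275 and 254 CPM in FxrKO livers and 216, 182, 195 and 223 CPM in Bcl6LKOFxrKO livers (-0.34 ± 0.11, adjusted p = 0.0314). Ndufa4l2 stood at 1.56, 0.875, 1.50 and 0.946 CPM and 2.22, 1.70, 1.95 and 2.81 CPM, higher in each Bcl6LKOFxrKO liver but not called (0.83 ± 0.30, adjusted p = 0.0547). Their log2 ratio differed by 1.14, from -7.65 ± 0.39 (SD, n = 4) to -6.51 ± 0.17 (SD, n = 4). Cox7a2l, which helps to join complexes III and IV into supercomplexes, stood at 78.9, 74.4, 77.9 and 73.4 CPM and 54.5, 55.9, 53.0 and 74.7 CPM (-0.35 ± 0.12, adjusted p = 0.0448). Its log2 ratio to Cox7a2 differed by 0.16, from -0.83 ± 0.11 (SD, n = 4) to -0.67 ± 0.051 (SD, n = 4). Ndufa4 was not called without liver 2, 3, 4, 5, 6 or 7 (adjusted p up to 0.085). Cox7a2l was not called without liver 1, 2, 3, 4, 5, 6 or 7 (adjusted p up to 0.12).

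Cox8b to Cox8a was the other of the 4 pairs, and no fold of this ratio is given because Cox8b was at 0 in FxrKO livers. The remaining pairs overlapped between genotypes. Cox6b2 to Cox6b1, a testis form beside the common one, differed by 1.59 (exact permutation p = 0.0857, adjusted 0.12). Cox4i2 to Cox4i1 differed by 0.59 (exact permutation p = 0.486, adjusted 0.567), and Cox7a1 to Cox7a2 by 0.19 (exact permutation p = 0.571, adjusted 0.571). Cox6b1 stood at 189.8, 199.9, 224 and 195 CPM in FxrKO livers and 162, 159, 153 and 204 CPM in Bcl6LKOFxrKO livers (-0.25 ± 0.12, adjusted p = 0.13). Of the 8 members with too few reads to be tested, Cox7b2 and Cox8c had 0 counts in all livers, and Cox4i2, Cox6a2, Cox6b2, Cox7a1, Atp5g2 and Atp5l were low.

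**Figure D4:**
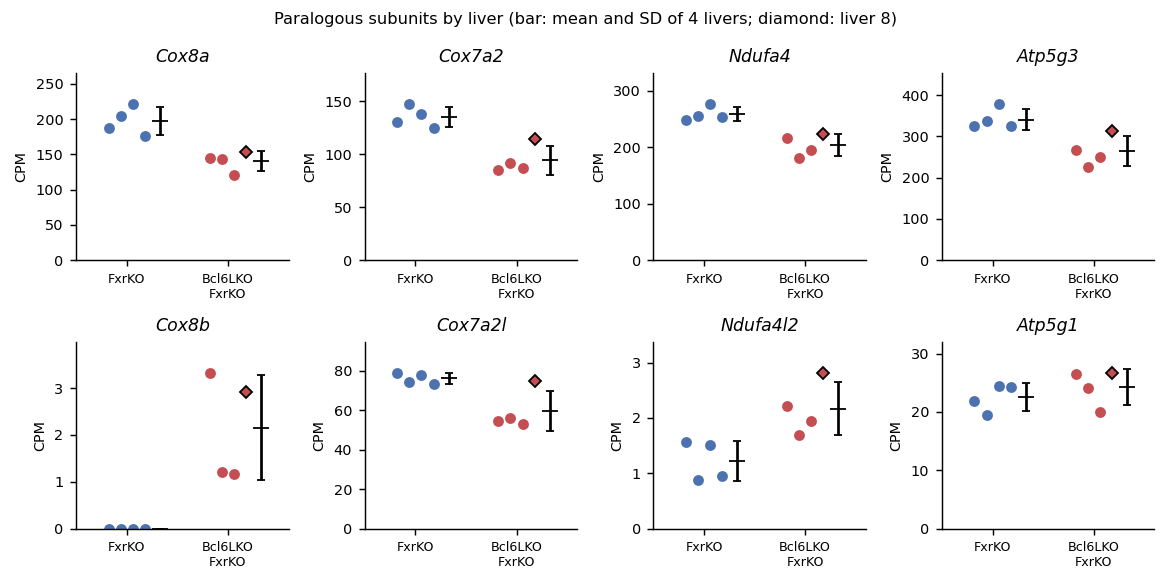
CPM of paralogous subunits in each liver, one pair per column, with the mean and SD of 4 livers (diamond, liver 8); each vertical axis starts at 0. Cox8b is at 0 in the 4 FxrKO livers and Ndufa4l2 is below 3 CPM in all livers, while Cox8a, Cox7a2, Ndufa4 and Atp5g3 are lower in all 4 Bcl6LKOFxrKO livers.

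The members are short, with a median transcript length of 745 bases compared with 2855 over all tested genes, and had a median GC content of 51.6% compared with 50.5%. Across 74 members, with Cox8b left out, the log2 difference of liver 8 from livers 5 to 7 went with GC content (Pearson's r = 0.64, Spearman's rho = 0.65) and, less so, with log2 length (r = -0.43, rho = -0.36). These describe genes of the same libraries, which are not independent replicates.

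All tested genes were then divided into 3 equal classes by GC content, a step chosen after the values were seen. In the lowest class the median deviation of liver 8 from FxrKO was -0.35 for members and -0.35 for other genes, and in the highest class 0.30 and 0.35. Going up the classes, 7 of 10, 14 of 35 and 4 of 30 members were called lower, as were 18.3%, 13.5% and 8.27% of other genes. Without liver 8 the counts were 7, 22 and 16. The members' medians were then -0.37, -0.34 and -0.30, and those of other genes -0.073, 0.014 and 0.075. A fit of all 8 livers with transcript length and GC content in its offset called 45 members lower, with a median of -0.32, where 21% of all tested genes were called lower and their median was -0.062. The part of GC content, length or RNA quality in the values of liver 8 was not tested.

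**Figure D5:**
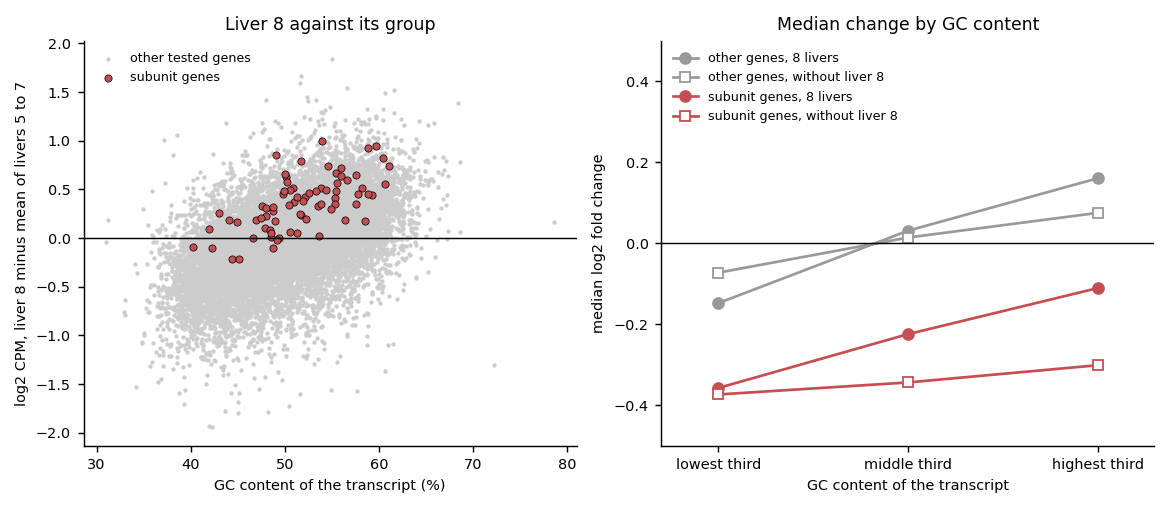
Left, log2 CPM of liver 8 minus the mean of livers 5 to 7 against transcript GC content (%), for subunit genes (red) and other tested genes (grey). Right, median log2 fold change by class of GC content with 8 livers (filled) and without liver 8 (open); in the highest class without liver 8 it is -0.30 for subunit genes and 0.075 for other genes.

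RefSeq promoters, from 250 bases before to 50 after the start site, were found for 68 of the 83 members. They were searched on both strands for motifs of factors known to act on nuclear genes of the chain. The NRF1 motif GCGCATGCG was in 11.8% of the members' promoters, compared with 1.95% of 27025 genes. The YY1 motif AAGATGGC was in 14.7%, compared with 3.19%, the ETS motif CCGGAAGT in 7.4%, compared with 4.31%, and the ERR motif TCAAGGTCA in 2.9%, compared with 0.47%. TTCCNNGAA, a core of sites bound by BCL6 and STAT proteins that was added after the data were seen, was in 7.4%, compared with 5.6%. Motifs were counted separately and may overlap.

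Atp5g3, which fell, and Uqcr11, which was not called, are shown as members that hold such motifs. Atp5g3 lies at chr2:73911327-73911576 and Uqcr11 at chr10:80406822-80407071, both on the minus strand of GRCm38.p6. Capitals mark an ERR motif of Atp5g3 on the reverse strand at position -52. In Uqcr11 they mark an ETS motif at position -66 and the upstream part of an NRF1 motif on the reverse strand at position -5.
Atp5g3: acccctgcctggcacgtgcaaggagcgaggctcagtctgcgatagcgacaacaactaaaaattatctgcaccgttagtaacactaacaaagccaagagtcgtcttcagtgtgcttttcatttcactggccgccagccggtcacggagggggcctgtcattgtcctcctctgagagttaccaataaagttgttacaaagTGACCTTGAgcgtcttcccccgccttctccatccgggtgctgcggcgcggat
Uqcr11: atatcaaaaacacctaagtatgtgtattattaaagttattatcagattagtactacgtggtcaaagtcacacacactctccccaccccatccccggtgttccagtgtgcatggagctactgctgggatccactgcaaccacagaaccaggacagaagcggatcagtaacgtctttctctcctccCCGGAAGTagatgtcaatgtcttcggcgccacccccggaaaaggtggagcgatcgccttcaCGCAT

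Genes around the chain were counted from lists of their own, to be read beside the 13.5% lower and 16.2% higher over all tested genes. Of 18 tested complex I assembly genes 4 fell and 1 rose. Ndufaf4 stood at 21.9 to 31.3 CPM in FxrKO livers and 10.1 to 16.1 CPM in Bcl6LKOFxrKO livers (-1.05 ± 0.17, adjusted p = 0.00057), and Foxred1 also fell (-0.52 ± 0.10, adjusted p = 0.00243). Acad9, an assembly factor related to the acyl-CoA dehydrogenases, stood at 38.0 to 41.5 CPM in FxrKO livers and 60.7 to 68.1 CPM in Bcl6LKOFxrKO livers and rose (0.68 ± 0.10, adjusted p = 0.000227). Of 26 complex IV assembly genes 8 fell and 2 rose. Lrpprc, which stabilises mitochondrial mRNAs, fell (-0.68 ± 0.11, adjusted p = 0.000468), as did the copper chaperone Sco2 (-1.09 ± 0.20, adjusted p = 0.0016). The copper chaperone Cox17 (0.77 ± 0.15, adjusted p = 0.00233) and Coa7 (0.44 ± 0.12, adjusted p = 0.0173) rose. Coa7 was not called without liver 1 or 2 (adjusted p up to 0.0517).

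None of 10 complex II and III assembly genes was called by edgeR in either direction. Of these, 3 were lower and 1 higher at an unadjusted p below 0.05, DESeq2 called 1 lower and 0 higher, and limma voom called 0. Of 6 ATP synthase assembly genes 3 fell, among them Atpaf2 (-0.44 ± 0.12, adjusted p = 0.0148) and Fmc1 (-0.47 ± 0.16, adjusted p = 0.0416), and Atpaf1 rose (1.20 ± 0.28, adjusted p = 0.00566). Subunits that the symbol rule does not reach are Cyc1, Ndufab1, Usmg5 and 2010107E04Rik. Cyc1, the cytochrome c1 of complex III, stood at 188, 188, 214 and 180.3 CPM in FxrKO livers and 132, 135, 140.4 and 143 CPM in Bcl6LKOFxrKO livers and fell (-0.49 ± 0.10, adjusted p = 0.00324). The others had log2 fold changes of -0.29, -0.49 and -0.22 and were not called, and all 4 genes were called lower without liver 8. Fmc1 was not called without liver 1, 2, 3, 4, 5, 6 or 7 (adjusted p up to 0.104).

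The citric acid cycle and pyruvate dehydrogenase feed electrons into the chain, and 11 of their 19 tested genes fell while 1 rose, with a median of -0.38. Pdha1 (-0.66 ± 0.10, adjusted p = 0.000415) and Pdhb (-0.69 ± 0.11, adjusted p = 0.000445), which form the first enzyme of pyruvate dehydrogenase, fell. Idh2, the NADP-dependent isocitrate dehydrogenase of mitochondria, stood at 159 to 174 CPM in FxrKO livers and 305 to 465 CPM in Bcl6LKOFxrKO livers and rose (1.26 ± 0.13, adjusted p = 1.72e-05). Of 23 genes of electron carriers and coenzyme Q 7 fell and 1 rose. Prodh, which takes electrons from proline (-1.07 ± 0.12, adjusted p = 2.14e-05), and Etfdh, which takes them from fatty acid oxidation (-0.56 ± 0.11, adjusted p = 0.00162), fell, and Coq10a rose (0.54 ± 0.13, adjusted p = 0.00777).

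Among 27 regulators of mitochondrial biogenesis 9 fell and 1 rose. Ppara, a nuclear receptor for fatty acids, stood at 205 to 296 CPM in FxrKO livers and 100.0 to 177 CPM in Bcl6LKOFxrKO livers (-0.99 ± 0.17, adjusted p = 0.00104), and Sirt3, a mitochondrial deacetylase, also fell (-0.68 ± 0.13, adjusted p = 0.00201). Nfe2l2, a regulator of antioxidant genes, rose (0.38 ± 0.13, adjusted p = 0.0395). Of 22 inner membrane genes 6 fell, among them Letm1 (-0.45 ± 0.10, adjusted p = 0.00586) and Apool (-0.44 ± 0.12, adjusted p = 0.0138), and the ADP/ATP carrier Slc25a4 rose (1.30 ± 0.25, adjusted p = 0.00184). Of 20 genes of mitochondrial fusion, folding and turnover 6 fell, among them Mfn1 (-0.53 ± 0.11, adjusted p = 0.00218) and Hspe1 (-0.41 ± 0.12, adjusted p = 0.0181), and none was called higher by edgeR (1 at an unadjusted p below 0.05, 0 with DESeq2 and 0 with limma voom). Nfe2l2 was not called without liver 2, 3, 4, 5, 7 or 8 (adjusted p up to 0.126). Hspe1 was not called without liver 2, 3, 5 or 7 (adjusted p up to 0.0565).

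Of 11 uncoupling and antioxidant genes 2 fell and 3 rose. Ucp2, an uncoupling protein that macrophages also express, stood at 43.1 to 56.2 CPM in FxrKO livers and 138 to 259 CPM in Bcl6LKOFxrKO livers (1.95 ± 0.17, adjusted p = 4.42e-06), and the transhydrogenase Nnt also rose (0.47 ± 0.11, adjusted p = 0.00524). The glutathione peroxidase Gpx1 (-0.80 ± 0.13, adjusted p = 0.000431) and the glutaredoxin Glrx2 (-0.48 ± 0.14, adjusted p = 0.0175) fell. Of 77 mitochondrial ribosome genes 9 fell, among them Mrpl39 (-0.45 ± 0.11, adjusted p = 0.00783) and Mrpl35 (-0.46 ± 0.12, adjusted p = 0.0133), and none was called higher by edgeR (2 at an unadjusted p below 0.05, 0 with DESeq2 and 0 with limma voom), with a median of -0.059. The symbol pattern for the cytosolic ribosome gave 88 tested genes, 4 lower and 4 higher, with a median of 0.11. Rpl35a (-0.50 ± 0.14, adjusted p = 0.0179) and Rpl15 (-0.57 ± 0.17, adjusted p = 0.0248) fell. The pattern also takes in S6 kinase genes, and the 4 higher genes, among them Rps6kl1 (2.92 ± 0.35, adjusted p = 5.41e-05) and Rps6kc1 (0.81 ± 0.18, adjusted p = 0.00464), are of that kind. Glrx2 was not called without liver 2 or 4 (adjusted p up to 0.0609). Rpl35a was not called without liver 3 or 7 (adjusted p up to 0.0528). Rpl15 was not called without liver 2, 3 or 5 (adjusted p up to 0.0842).

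Counts of markers of other liver cells are to be read beside the 16.2% called higher over all tested genes. Of 12 stellate cell and fibroblast markers 9 rose, and they summed to 284 to 389 CPM in FxrKO livers and 587 to 685 CPM in Bcl6LKOFxrKO livers. Of 7 tested cholangiocyte markers 4 rose, with sums of 103 to 168 CPM in FxrKO livers and 171 to 273 CPM in Bcl6LKOFxrKO livers. Of 11 macrophage markers 3 rose, with sums of 393 to 558 CPM in FxrKO livers and 545 to 879 CPM in Bcl6LKOFxrKO livers. Of 10 endothelial markers 2 rose, with sums of 228 to 309 CPM in FxrKO livers and 305 to 397 CPM in Bcl6LKOFxrKO livers. The sums overlapped between genotypes for macrophage and endothelial markers and did not for stellate cell and cholangiocyte markers. Of 11 hepatocyte markers 4 fell, Apob, Pck1, Serpina1c and Ttr, and 2 rose, Ahsg and Alb.

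Blood cell markers were low. Neutrophil markers summed to 5.16 to 12.3 CPM in FxrKO livers and 13.8 to 23.1 CPM in Bcl6LKOFxrKO livers, with 2 of 3 tested called higher. B cell markers summed to 5.25 to 8.81 CPM in FxrKO livers and 9.95 to 16.0 CPM in Bcl6LKOFxrKO livers, with 1 of 2 called higher. T and NK cell markers, too low to be tested, summed to 1.83 to 2.93 CPM in FxrKO livers and 5.34 to 9.95 CPM in Bcl6LKOFxrKO livers. Adipocyte markers summed to 26.5 to 44.3 CPM in FxrKO livers and 27.8 to 37.9 CPM in Bcl6LKOFxrKO livers, with Lep, Plin1 and Ucp1 at 0 and Cfd called lower. Pancreatic acinar markers summed to 15.2 to 30.6 CPM in FxrKO livers and 8.96 to 11.4 CPM in Bcl6LKOFxrKO livers, with Prss1, Prss2, Pnlip and Amy2a5 at 0 and Cela1 called lower. The part of cell composition in the subunit levels was not tested.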

How the data were processed

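PolyA RNA of whole liver was sequenced from 4 FxrKO and 4 Bcl6LKOFxrKO males (TruSeq Stranded mRNA, 100-base single-end reads). Per the study's methods and the submitters' processing notes, the authors aligned reads to mm10 with STAR 2.5.2, kept unique alignments with at most 4 mismatches and counted reads per gene with HOMER 4.10. The deposited values are raw counts, not normalized. Mice were fed ad libitum or briefly fasted, and which holds for these livers was not given in the sources used here. Each library was taken as 1 mouse, as the labels give it.

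Tests on these counts used edgeR 4.0.16 under R 4.3.3: filterByExpr, TMM scaling, robust quasi-likelihood fit, genotype as the only term, and Benjamini-Hochberg adjustment over the 12340 genes tested. The SE is the absolute log2 fold change divided by the square root of F. CPM use TMM-scaled library sizes. Paralogue ratios used log2 of CPM plus 0.1 and exact permutation tests, and liver deviations used log2 of CPM plus 0.5. Alternatives were DESeq2 1.42.0, limma 3.58.1 voom with quality weights, other scalings and filters, offsets for length and GC content, other pseudocounts and each liver left out. Totals of 7586241 to 11839503 reads per liver limit the precision of low counts.

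Members and lists were chosen with earlier results of these data known. Named genes were, per complex, the 3 called members of smallest adjusted p, up and down separately, the 2 with the highest level per length and the paralogue pairs. For each list they were the 2 called genes of smallest adjusted p, again up and down, and all subunits outside the symbol rule. Genes outside this rule are named by count or because they were singled out after their values were seen.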

Additional observations from a re-analysis of the deposited data

Results flagged for a closer look

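Some values lay far from the other 3 livers of their genotype, with a gap to the nearest liver, as a share of the group's range, above Dixon's critical value. Of 147 groups of 4 livers looked at, 9 were of this kind, and chance gives about 1 in 20. In 5 of them liver 8 was high. Cox4i1 stood there at 358 CPM compared with 215 to 236 CPM in the other 3 (gap 0.852 of the range). Cox7a2l stood at 74.7 CPM compared with 53.0 to 55.9 CPM in the other 3 (gap 0.864 of the range). Sdhb stood at 169 CPM compared with 135 to 140.3 CPM in the other 3 (gap 0.844 of the range). Uqcrh stood at 175 CPM compared with 122 to 130.2 CPM in the other 3 (gap 0.847 of the range). The summed level of complex III was 1453 CPM compared with 1095 to 1155 CPM in the other 3 (gap 0.832 of the range).

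The others involved different livers. Ndufs1 in FxrKO liver 1 was low, at 129.8 CPM compared with 156 to 159 CPM in the other 3 (gap 0.880 of the range). Uqcrfs1 in FxrKO liver 3 was high, at 231 CPM compared with 184 to 189.7 CPM in the other 3 (gap 0.888 of the range). Hspe1 in FxrKO liver 4 was low, at 57.8 CPM compared with 70.6 to 72.1 CPM in the other 3 (gap 0.895 of the range). Mrpl35 in Bcl6LKOFxrKO liver 6 was high, at 20.6 CPM compared with 17.1 to 17.5 CPM in the other 3 (gap 0.890 of the range).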

How the results depend on the processing

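No paired analysis was possible because the labels name the libraries sample 1 to 4 and sample 5 to 8, with no number shared between genotypes, and give no animal, litter or day that ties a library of one genotype to one of the other. The count of members called lower was 25, beside 13.5% of all tested genes, and that share follows each count in brackets. It was 27 with DESeq2 (14.3%), 36 with limma voom (15.5%), 20 with upper quartile factors (11.6%) and 39 with total counts (23.9%). It was 45 with the length and GC offset (21%) and 48 with that offset and without liver 8 (19.9%), a setting chosen after seeing the data. Members called higher numbered 2 with upper quartile factors (17.6% of all tested genes), 2 with no filter (11.6%) and 3 with a length offset (14.7%). They numbered 0 with at least 10 counts in every liver (15.3%), a filter that removes Cox8b. With the fold limit, 7 members were lower; this became 11 with voom, 4 with upper quartile factors, 22 with total counts, 13 with the length and GC offset and 14 with that offset and without liver 8. Higher with the fold limit were 2, 2, 2 and 0 members with upper quartile factors, no filter, the length offset and the 10-count filter. Shares of all tested genes with the fold limit are given for the main fit only, at 9.84% lower and 14.1% higher. Without such a share, the fold-limit counts from other fits do not set members apart from other genes. Total counts also moved the median of all tested genes to -0.15. Of the pathway lists, 70 genes were called lower, beside 13.5% of all tested genes, and 116 with total counts, beside 23.9%. The numbers of tested genes in the lists are given above.

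With total counts the medians were -0.37 for members and -0.32, -0.63, -0.48 and -0.50 for complexes I to IV; complex V had -0.38 with the length and GC offset and without liver 8. Of the genes named singly, Cox6a1 turned negative with voom (-0.045), total counts (-0.12), the length and GC offset (-0.20), that offset without liver 8 (-0.17), without liver 4 (-0.025) and without liver 8 (-0.090), while the highest value with a liver left out was 0.12. Atp5g1 turned negative with total counts (-0.054), the length and GC offset (-0.088) and that offset without liver 8 (-0.020). With pseudocounts of 0.5 and 1 CPM, 5 paralogue ratios passed the threshold: Cox6b2 to Cox6b1 (1.08 and 0.83), Cox7a2l to Cox7a2 (0.16 and 0.16), Cox8b to Cox8a (2.79 and 2.07), Ndufa4l2 to Ndufa4 (0.98 and 0.86) and Atp5g1 to Atp5g3 (0.48 and 0.48). Each of these pairs was at the smallest possible permutation p of 0.0286, and the adjusted p falls as more of the 7 pairs reach it. Cox8b to Cox8a, which met the count limit only through Bcl6LKOFxrKO livers, is counted among them. Cox7a2l to Cox7a2 and Atp5g1 to Atp5g3 thus passed with differences of the same size as before. Since Cox8b was at 0 in FxrKO livers, its values here are set by the pseudocount and are not folds. Apart from the alternatives' own construction, the cause of these changes was not tested.

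Leaving out each liver in turn gave 16 to 45 members lower, lowest without liver 3 or 5 and highest without liver 8, and 1 to 2 higher. Of all tested genes, 10.1% were called lower without liver 3, 10.4% without liver 5 and 13.5% without liver 8. From 12.6% (without liver 3) to 15% (without liver 8) of all tested genes were called higher. With the fold limit the counts were 3 to 14 and 1 to 2. Pathway genes called lower ran from 36 without liver 3 (10.1% of all tested genes) to 77 without liver 8 (13.5%). Those called higher ran from 11 without liver 2 (12.9% of all tested genes) to 18 without liver 7 (14.8%). Medians ran from -0.32 to -0.17 for members, and from -0.29 to -0.11, -0.50 to -0.43, -0.35 to -0.27, -0.50 to -0.26 and -0.33 to -0.16 for complexes I to V. Ratio differences ran from -0.029 to 1.16 for Cox4i2 to Cox4i1, 1.24 to 1.95 for Cox6b2 to Cox6b1, 0.0027 to 0.47 for Cox7a1 to Cox7a2, 0.10 to 0.19 for Cox7a2l to Cox7a2, 4.60 to 5.06 for Cox8b to Cox8a, 1.02 to 1.29 for Ndufa4l2 to Ndufa4 and 0.41 to 0.55 for Atp5g1 to Atp5g3. Those of Cox8b again depend on the pseudocount. The adjusted p of these ratios was 0.05 or more in each case. Of the comparisons of a named gene with an alternative, 1155 kept direction and side of the threshold, 91 lost the call, 32 gained one and 9 changed sign.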
